A study of Mus musculus with 12 samples.

Results

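The polyadenylated transcriptome of freshly isolated mouse cardiomyocytes was examined in 3 sequencing libraries, numbered 1 to 3 as in their labels, out of the 12 samples of the series. The 3 columns of gene counts for these libraries were taken on their own, and their ranking, the shares of counts by gene class and function, and the spread between the libraries are described here. The cells are labelled as coming from 3 hearts of wild-type female FVB/NJ mice aged 12 weeks, with no transgene or treatment named. Each heart was perfused by the Langendorff method, which feeds the heart backwards through the aorta, and digested with collagenase. The myocytes were separated from the other cells by filtration under gravity and their RNA went into Trizol without any culture. RNA with a poly(A) tail was captured on oligo(dT) and broken up chemically, and the libraries were read from a single end, with no record of the strand. The other 9 samples, which are cultured nonmyocytes and small RNA, were not used here. The labels do not say which heart gave which library, so the spread given below is that between 3 libraries, which may be biological or technical.

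The adult heart muscle cell contracts without pause. Its sarcomeres slide myosin thick filaments along actin thin filaments, calcium released from the sarcoplasmic reticulum switches the thin filament on, and a dense population of mitochondria supplies the ATP, mostly from fatty acids. Adult mouse ventricle is known for its use of the fast alpha myosin heavy chain, encoded by Myh6, and for abundant myoglobin, which stores oxygen. Several of these proteins come in muscle forms and general forms encoded by separate genes.

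Gene totals were 5956831, 26851830 and 26195634 counts in libraries 1, 2 and 3, so that library 1 was the shallowest. Levels are given as counts per 1000000 of the library total (CPM), in the order of libraries 1, 2 and 3 unless stated otherwise. A CPM value is a share of all counts and grows with transcript length, so levels of different genes are compared by counts per kilobase of merged exon, scaled to sum to 1000000 in each library (called the per-length level). Merged exon is the union of all annotated exons of a gene. It can be longer than the transcript in the cell, which lowers the per-length level of that gene. Ranks by CPM, and the genes said to lead a list, refer to shares of counts. A count of 0 allows up to 3 counts, or 0.504, 0.112 and 0.115 CPM, from counting error alone. Counts of the same genes in any pair of libraries differed far beyond sampling noise, with a chi-square of 22.2 to 37.0 per gene, so no library was a copy of another.

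Library 1 went against its label in the genes of the Y chromosome. Although all 3 libraries are labelled female, the genes of that chromosome had 341, 18 and 7 counts in sum. Ddx3y, an RNA helicase gene, had 119, 7 and 4 counts, Eif2s3y, an initiation factor gene, 107, 4 and 1, Kdm5d, a histone demethylase gene, 66, 5 and 1, and Uty 9, 1 and 0. The summed level of the chromosome was 57.2, 0.670 and 0.267 CPM. The X-linked partner Ddx3x was lowest in library 1, at 36.8, 71.9 and 106 CPM, and Kdm5c read 110.3, 118 and 136 CPM. Xist, the RNA of the silenced X chromosome, was listed at 0 in all libraries, but the annotation gives every one of its exon bases to another gene too, so its level cannot be read. The part of this departure from the label in the other values of library 1 was not tested. Most values are therefore given for each library. Without library 1 the mean share of nuclear coding genes was 91.2%, that of mitochondrial genes 5.99%, that of contractile genes 20.2% and that of respiratory chain genes 12.8%.

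The cells carried the markers of heart muscle at the top of the ranking. Myh6 stood at 41006, 48849.7 and 50998 CPM, Mb (myoglobin) at 29799, 29032 and 27695 CPM, and Myl2 (the ventricular regulatory myosin light chain) at 15211, 19251 and 15883 CPM. Ttn (titin, the elastic spring of the sarcomere) reached 12214, 13867 and 18431 CPM, and Tnnt2 (cardiac troponin T) 17062, 11553 and 11520.1 CPM. These 5 markers together held 115292, 122553 and 124527 CPM. The 4 ventricular markers summed to 24183, 27899 and 23410 CPM, nearly all from Myl2 and the light chain gene Myl3. Irx4 had a mean of 58.7 CPM, and Hey2 had only 7, 44 and 66 counts. The 7 atrial markers summed to 197, 354 and 308 CPM. The peptide gene Nppa led at 136, 267 and 230.5 CPM. Tbx5 was at 32.2, 46.7 and 51.6 CPM and the atrial light chain Myl7 at 15.6, 24.0 and 11.8 CPM. The atrial marker Sln cannot be read, since all its exon bases lie in another gene as well.

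Other cells of the heart left a small and uneven trace. The summed level of 14 endothelial markers was 968, 1297 and 1550.1 CPM, led by Cdh5 (145, 245 and 258 CPM) and Fabp4 (154, 199 and 294 CPM), with 12 of the 14 lowest in library 1. Over the 5140 genes of the table with a mean of 20 CPM or more, library 1 was the lowest for 40.5% and the highest for 42.8%, library 2 for 30.4 and 20.4%, and library 3 for 29.1 and 36.8%. For 10 markers of smooth muscle and pericytes the sum was 616, 805 and 981 CPM, led by Acta2 (269, 275 and 304 CPM) and Abcc9 (163, 267 and 356 CPM), and 9 of the 10 were lowest in library 1. Abcc9 is also a potassium channel subunit of the myocyte itself. The 12 fibroblast markers summed to 183, 191 and 176 CPM, led by Col1a1 (57.2, 71.9 and 60.5 CPM), and 8 of the 12 were lowest in library 1. The background above is for genes with a mean of 20 CPM or more. At that level library 1 was lowest for 9 of 11 endothelial, 5 of 6 smooth muscle and pericyte and 2 of 4 fibroblast markers. Dcn (35.8, 16.5 and 16.1 CPM) and Pi16 (102, 188 and 179 counts) were instead more than 2 times higher in CPM there than in either other library. The 14 leukocyte markers stayed at 53.9 to 68.3 CPM in sum, led by Lyz2 and Csf1r, whose means were 16.6 and 10.4 CPM. Markers of epicardium, nerve sheath and fat summed to 16.3 CPM or less in each library, with the fat hormone gene Lep listed at 0 throughout. Conduction system markers summed to 146 to 161 CPM, most of it Cacna1g, a T-type calcium channel (118, 123 and 109.9 CPM). The 5 red blood cell markers stood apart: their sum was 524, 63.5 and 9.96 CPM, and all 5 were highest in library 1. In bulk RNA, fewer cells of a type and less RNA per cell cannot be told apart.

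Protein-coding genes of the nucleus took most of the counts. Their share was 93.3, 91.3 and 91.1% (91.9% ± 1.24, SD, n = 3), that of the coding genes of the mitochondrial genome 3.06, 6.12 and 5.85% (5.01% ± 1.69), and that of the long noncoding RNA (lncRNA) genes of a catalogue merged into the annotation 3.51, 2.50 and 2.95% (2.99% ± 0.506). Library 1 was thus lowest in mitochondrial counts and highest in nuclear coding and lncRNA counts. Pseudogenes held 0.0767% ± 0.00874. On the per-length scale the mitochondrial share was 8.81% ± 3.07 and the lncRNA share 7.33% ± 1.29. The mitochondrial share came almost wholly from 7 of 13 genes. The rest were listed at or near 0, as set out below, and what they may contribute is not in it.

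Counts were concentrated in few genes. The single highest gene, Myh6 in every library, took 4.10, 4.88 and 5.10% of counts, the 10 highest genes of each library 16.1, 18.5 and 18.2%, and the 100 highest 41.4, 44.2 and 42.6%. It took 186, 156 and 178 genes to reach 50% of counts and 3372, 3361 and 3612 to reach 90%. By per-length level the 50% mark was reached with 63, 51 and 56 genes. A mean of 10000 CPM or more was reached by 8 genes, 1000 CPM by 138, 100 CPM by 1367 and 10 CPM by 7128. Of 57683 genes in the table, 11472 reached 1 CPM in every library, with 10044 of 20018 nuclear coding genes among them and 1390 of 36991 catalogue lncRNA genes, while 28049 were listed at 0 in all 3. At least 1 count was seen for 18194, 25759 and 26891 genes, and at the depth of library 1 libraries 2 and 3 would be expected to show 21223.9 and 22253.1.

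The 20 highest genes by CPM included, in order of their means, Myh6, Mb, Myl2, Ttn, Tnnt2, mt-Co1, mt-Cytb, Actc1, Tnni3, Tpm1, mt-Nd1, Myl3, mt-Nd2, the lncRNA n265358, Mybpc3, Cryab, Slc25a4, Tnnc1 and Atp5b. Of the 20, 11 belonged to the contractile apparatus and 5 to the respiratory chain or ATP synthase. The ranking was stable at the top, with 8 genes among the 10 highest of all 3 libraries, 14 among the 20 highest and 80 among the 100 highest. Further down the contractile share thinned out: 16 of the genes ranked 21 to 100 were contractile, 16 respiratory and 20 in fuel use, and of ranks 101 to 1000 only 37, 49 and 64. Between ranks 1001 and 5000, 89.2% of genes were in none of the 32 function lists. The lists hold 1438 genes in all, 105 of them contractile, and were chosen with earlier results of these data known. These counts by rank therefore depend on the size and choice of the lists.

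**Figure D1:**
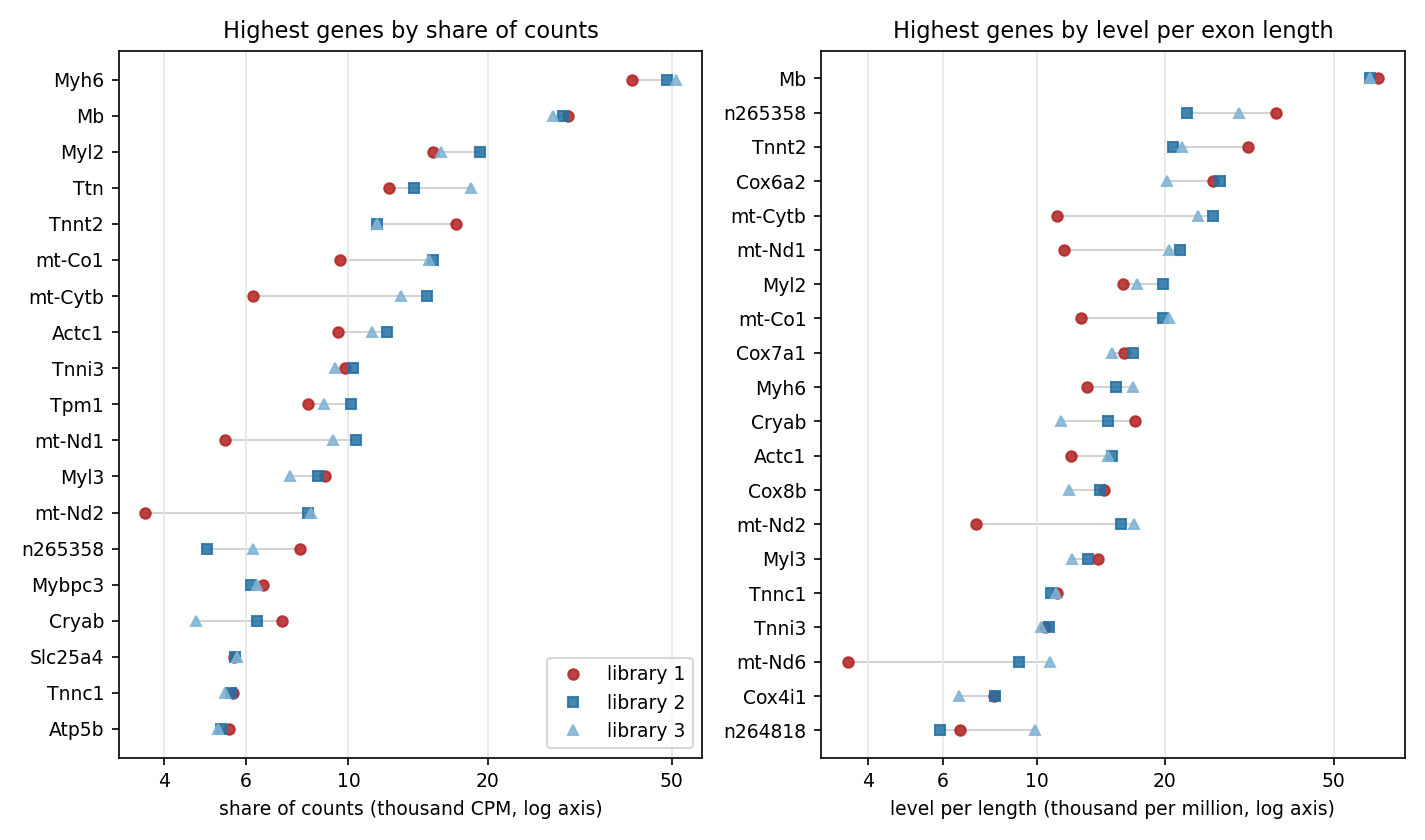
Levels of 19 of the 20 highest genes by CPM (left, in units of 1000 CPM) and of the 20 highest by per-length level (right, in units of 1000), both on log axes, with 1 point per library. Myh6 leads on the left at 41006 to 50998 CPM and Mb on the right at 60862 to 63718, and the mitochondrial genes have their library 1 points to the left of the others.

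Per length the order was different, and 14 genes were in the 20 highest on both scales. Myoglobin led with a per-length level of 63718, 60862 and 61074, followed by n265358 at 36661, 22586 and 29959. Tnnt2 came next at 31520.5, 20924 and 21949, then Cox6a2, a muscle subunit of cytochrome oxidase, at 25950.0, 26978 and 20238. Small respiratory subunits moved up, as Cox7a1 did from rank 38 by CPM to rank 9 and Cox8b from rank 56 to rank 13. Titin, with 116832 bases of merged exon, moved down from rank 4 to rank 397 at a per-length level of 262 ± 63.0. The order of close neighbours was not resolved: mt-Nd1 (17972 ± 5539), Myl2 (17689 ± 1968) and mt-Co1 (17660.4 ± 4274) lay within 1 SD of each other.

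Contractile genes took 1 count in 5. The 105 members of the thick filament, thin filament and Z-disc lists, 91 of them at 1 CPM or more in every library, held 19.9, 20.1 and 20.2% of counts (20.1% ± 0.173), a spread smaller than that of any of the 3 lists alone. Thick filament, titin and M-band genes held 9.86, 10.7 and 11.0%, thin filament genes 5.44, 5.34 and 5.03%, and genes of the Z-disc, costamere and intercalated disc 4.56, 4.15 and 4.15%. The thick filament share was lowest in library 1 and the other 2 were highest there.

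In the thick filament, the motor Myh6 was joined by the beta heavy chain gene Myh7 at 2707, 2138 and 2151 CPM. The essential light chain gene Myl3 stood at 8901, 8588 and 7478 CPM, and Mybpc3, cardiac myosin binding protein C, at 6528, 6151 and 6343 CPM. Of these, Mybpc3 had the closest agreement between libraries, with an SD of 188 around a mean of 6341 CPM. Myom2, an M-band protein, was at 879, 1273 and 1498 CPM, lowest in library 1. Of 15 members at 20 CPM or more, 3 had a highest library at least 2 times the lowest (called a 2-fold range below). Among all 5140 genes at that level 317 had one, or 6.17%, which is the background for the lists below. Library 1 was highest for Myh7b (779, 271 and 386 CPM) and lowest for Mylk4 (50.5, 86.7 and 128 CPM) and Mybpc2 (48.9, 91.4 and 107 CPM). The lowest detected member was Myh2 of fast skeletal muscle, with a single count, in library 3.

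The thin filament was carried by its cardiac genes. Actc1 (cardiac actin) reached 9511, 12096 and 11258 CPM, Tnni3 (troponin I, the inhibitory subunit) 9826, 10249 and 9349.6 CPM, and Tnnc1 (troponin C, the calcium sensor) 5645, 5567 and 5423 CPM. Tpm1 (tropomyosin, which covers the myosin sites on actin) was at 8175, 10143 and 8836 CPM. The 3 troponin subunits did not share a pattern: Tnnt2 was highest in library 1, while Tnni3 and Tnnc1 spread by an SD of 450.0 and 112 around means of 9808 and 5545 CPM. By per-length level Tnnt2 (24798 ± 5845) stood above Tnnc1 (11026 ± 191) and Tnni3 (10464 ± 216), whose ranges did not overlap with it. The merged exon used was 1110 bases for Tnnt2, 1035 for Tnnc1 and 1928 for Tnni3. The part of these annotated lengths in this order was not tested. Lmod2, a leiomodin that controls thin filament length, was at 1641, 986 and 1253 CPM. Of 13 members at 20 CPM or more, 2 had a 2-fold range (6.17% over all genes at this level). They were Nebl (77.9, 126 and 186 CPM) and Tmod4 (37.4, 19.2 and 15.1 CPM). The lowest detected member, Tnnt3 of fast skeletal muscle, had 3 counts in library 3 and none elsewhere.

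At the Z-disc, Actn2 (alpha-actinin, the crosslinker of actin) was steady at 4729, 4628 and 4382 CPM. Des (desmin, the intermediate filament of muscle) was at 5479.6, 4369 and 3884 CPM and Ankrd1, a stretch-responsive ankyrin repeat protein, at 4123, 2864 and 2833 CPM, both highest in library 1. Tcap (telethonin, the titin cap) was lowest there at 1529, 2499 and 2349 CPM, as was Dsp (desmoplakin of the desmosome) at 2041, 2754 and 2811 CPM. Of 50 members with a mean of 20 CPM or more, 3 had a 2-fold range, near the background of 6.17%, with Xirp1 and Sgcd among them. Xirp1, an actin-binding protein of the intercalated disc, was at 2162, 815 and 841 CPM, with library 1 apart.

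The start regions of the filament genes were read for 5 short motifs. RefSeq windows of 250 bases before an annotated start (assembly GRCm38.p6) were matched by symbol for 13786 of the 20018 nuclear coding genes, and for 24 of the filament genes with a mean of 20 CPM or more. A gene was counted when any of its windows held the motif. CATTCC, or its reverse complement GGAATG, the core of the muscle MCAT element that TEAD factors bind, was found for 12 of the 24 filament genes (50%), against 13.5% of all matched coding genes, 13.0% of those with at least 1 CPM in each library, 18% of the 100 highest nuclear coding genes and 12.5% of nuclear respiratory chain and ATP synthase genes. Windows per gene were 1.29 for the filament genes and 1.29 for the detected genes. They were 1.23 for all matched coding genes, 1.45 for the 100 highest and 1.09 for the respiratory genes, so these groups were searched to a different extent. A match is a description of letters and not a site in use, and no chance test was made of these shares. The windows of 5 of the 12 are printed because these genes are among the 20 highest by CPM. They are Myh6 (chr14:54966608-54966857, minus strand, match starting 206 bases before the start), Tnnt2 (chr1:135836084-135836333, plus strand, 27 bases), Tpm1 (chr9:67049214-67049463, minus strand, 56 bases), Myl3 (chr9:110763428-110763677, plus strand, 177 and 149 bases) and Tnnc1 (chr14:31208062-31208311, plus strand, 58 bases). Each is given 5′ to 3′ on the strand of its gene, ending at the base before the start, with the matches in capitals.
Myh6: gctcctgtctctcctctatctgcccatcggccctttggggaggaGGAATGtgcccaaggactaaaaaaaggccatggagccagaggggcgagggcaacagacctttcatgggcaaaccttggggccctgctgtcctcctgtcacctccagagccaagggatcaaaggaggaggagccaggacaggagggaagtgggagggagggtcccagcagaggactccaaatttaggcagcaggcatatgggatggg
Tnnt2: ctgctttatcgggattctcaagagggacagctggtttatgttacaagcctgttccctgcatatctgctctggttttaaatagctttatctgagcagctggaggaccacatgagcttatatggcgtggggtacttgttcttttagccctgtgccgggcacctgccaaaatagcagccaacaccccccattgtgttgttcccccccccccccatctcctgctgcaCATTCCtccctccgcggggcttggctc
Tpm1: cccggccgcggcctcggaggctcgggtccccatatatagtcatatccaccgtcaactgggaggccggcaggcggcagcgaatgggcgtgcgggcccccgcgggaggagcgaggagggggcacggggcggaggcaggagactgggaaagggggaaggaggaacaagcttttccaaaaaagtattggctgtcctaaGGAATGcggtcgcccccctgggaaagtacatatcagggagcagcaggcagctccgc
Myl3: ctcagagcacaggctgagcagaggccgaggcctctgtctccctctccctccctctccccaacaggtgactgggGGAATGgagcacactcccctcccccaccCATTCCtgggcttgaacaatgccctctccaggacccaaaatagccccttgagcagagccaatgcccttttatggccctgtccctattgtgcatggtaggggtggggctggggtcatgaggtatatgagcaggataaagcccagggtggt
Tnnc1: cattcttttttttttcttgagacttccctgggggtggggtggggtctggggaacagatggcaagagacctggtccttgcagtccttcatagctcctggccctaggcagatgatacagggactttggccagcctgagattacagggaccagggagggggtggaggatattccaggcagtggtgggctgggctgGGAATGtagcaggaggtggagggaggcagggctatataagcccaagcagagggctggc
Matches lay from 27 to 206 bases before the start, 4 as GGAATG and 2 as CATTCC, and Myl3 carried both. Among the highest filament genes Myl2, Ttn, Actc1, Tnni3 and Mybpc3 had no such match in these windows.

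The other 4 motifs were found for fewer of the filament genes. The CArG box bound by SRF (serum response factor) was searched for after the values of other motifs were seen. It was found for 5 of 24 (Actc1, Myl3, Acta1, Myom1 and Nebl; 20.8%), against 1.55% of all matched coding genes, 1.48% of detected ones, 6% of the 100 highest and 0% of respiratory genes. CTANNNNTAG, the outer letters of a MEF2 site with any bases between, was found on either strand for 3 of 24 (Ttn, Mybpc3 and Obsl1; 12.5%), against 3.51% of all matched coding genes, 3.27% of detected ones, 7% of the 100 highest and 1.79% of respiratory genes. GATAAG, the GATA site, was found on either strand for 2 (8.33% against 6.96%). TATAAA on the gene strand, starting 40 to 20 bases before the start, was found for none of the 24, against 2.87%. Only this exact string was searched, and other forms of a TATA box, such as TATATAAG in the Tnnc1 window above, were not counted. No overlap between these motifs was needed for a count.

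Respiratory chain genes were the next block. The 102 genes of the 5 lists for the respiratory chain and ATP synthase, mitochondrial and nuclear, held 10.1, 13.5 and 12.1% of counts (11.9% ± 1.71), and 24.0% ± 3.05 of the per-length total, where they stood above the contractile genes at 15.0% ± 0.260. The low share in library 1 came with the genes of the mitochondrial genome (3.06, 6.12 and 5.85%). The respiratory totals do not hold what mitochondrial genes listed at or near 0 may contribute. The 89 nuclear members held 7.01, 7.36 and 6.23% and were lowest in library 3.

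Of the 13 coding genes of the mitochondrial genome, 7 were above 900 CPM in every library. The cytochrome oxidase subunit gene mt-Co1 was at 9598, 15215 and 14935 CPM and the cytochrome b gene mt-Cytb at 6212, 14764 and 12988 CPM. Complex I genes followed, with mt-Nd1 at 5422, 10369.9 and 9283 CPM, mt-Nd2 at 3638, 8172 and 8314 CPM and mt-Nd5 at 2559.9, 6102 and 6102 CPM. All 7 were lowest in library 1. The ratio of library 1 to the mean of the other 2 ran from 0.637 for mt-Co1 through 0.552 for mt-Nd1 and 0.544 for mt-Nd4 to 0.364 for mt-Nd6, the only one of the 7 on the opposite strand. The remaining 6 were missing or nearly so: mt-Co2, mt-Atp8, mt-Atp6 and mt-Co3 were listed at 0 in all 3 libraries, mt-Nd3 had 0, 20 and 18 counts and mt-Nd4l 0, 5 and 0 counts. These encode core subunits that every respiring cell makes, so no level in the cell can be read from these zeros. The ranking and the shares above do not hold what these genes may contribute. The annotation also places 20 catalogue lncRNA genes on a second mitochondrial sequence name, and all 20 were listed at 0.

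Nuclear complex IV genes stood out by length. The list held 1.57, 1.71 and 1.34% of counts but 6.98% ± 0.701 of the per-length total, through Cox6a2 (5442, 5770.3 and 4115 CPM), Cox7a1 (2849, 3051 and 2588 CPM), Cox4i1 (2613, 2688 and 2105 CPM) and Cox8b (2273, 2261 and 1823 CPM). All 4 were lowest in library 3. Complex I, which takes electrons from NADH, held 2.25, 2.38 and 2.04% over 38 nuclear genes, led by Ndufb9 at 1529, 1784 and 1384 CPM and Ndufb8 at 1284, 1361 and 1101 CPM. At its lower end Ndufs6, 63% of whose exon bases are also in other genes, had 0, 4 and 1 counts. Complexes II and III with cytochrome c held 1.03, 0.991 and 0.883%, led by Uqcrc1, a core protein of complex III, at 2964, 2512 and 2083 CPM.

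ATP synthase genes held 2.16, 2.28 and 1.96%. The catalytic subunits Atp5b and Atp5a1 were at 5533, 5314 and 5224 CPM and at 5104, 5613 and 5336 CPM, and the membrane ring gene Atp5g3 at 3202, 3893 and 2423 CPM. Of the 69 nuclear respiratory members with a mean of 20 CPM or more, 0 had a 2-fold range, while 4 of the 7 mitochondrial genes did. Over all genes at this level 6.17% had one.

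**Figure D2:**
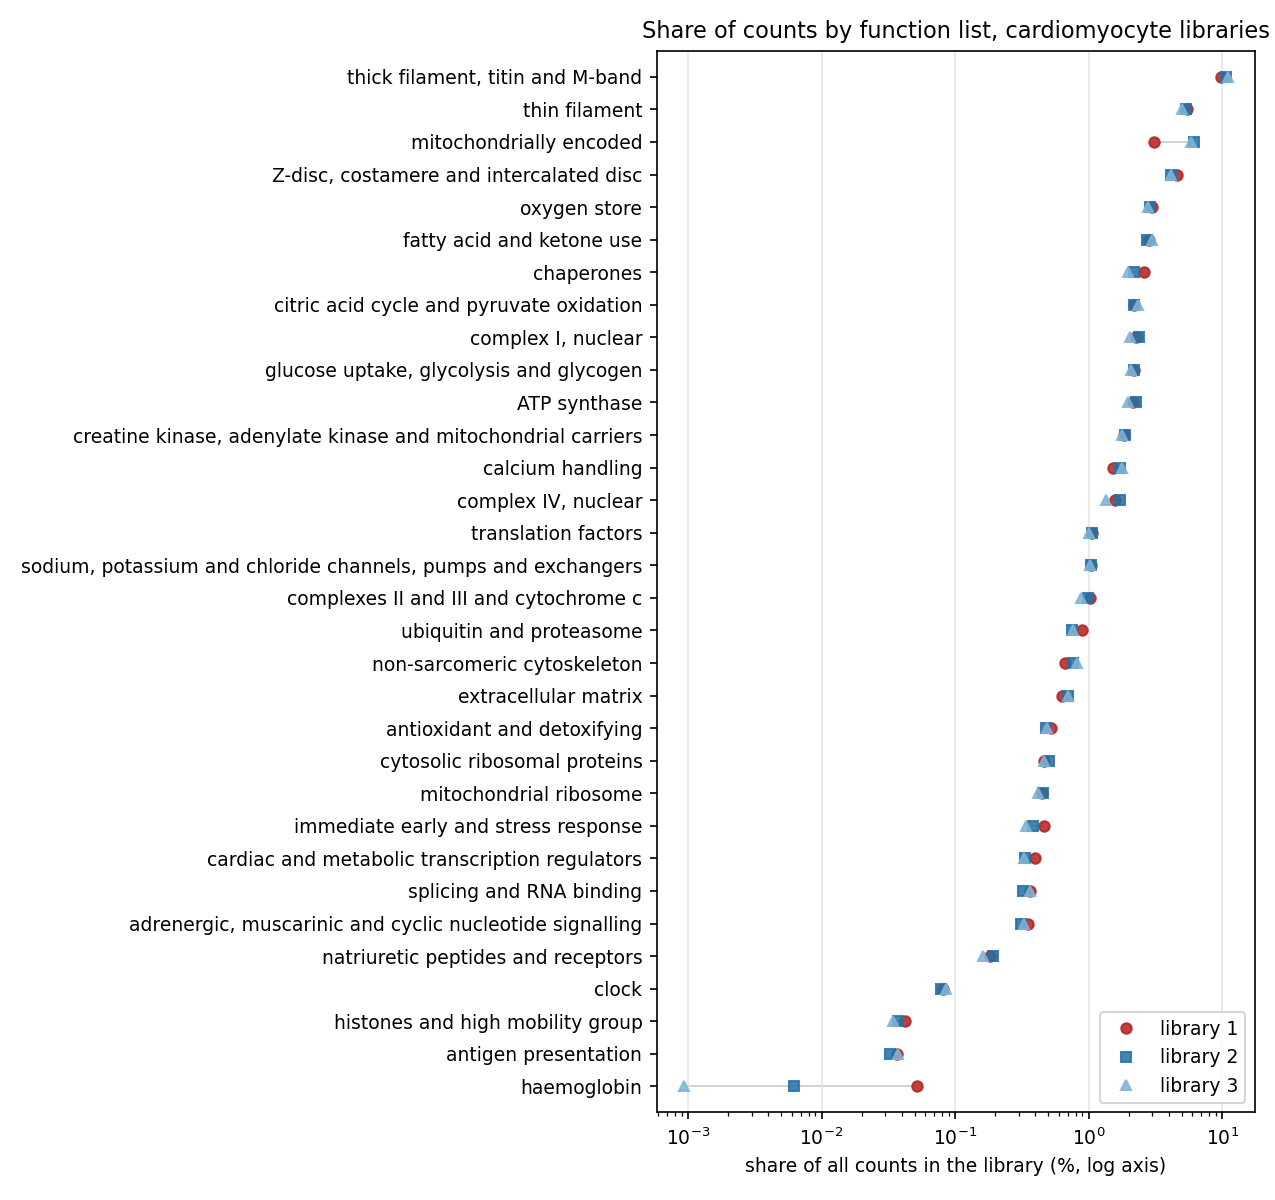
Share of all counts (percent, log axis) held by each of the 32 function lists, with 1 point per library. Thick filament genes lead at 9.86 to 11.0%, the mitochondrial genes show library 1 (3.06%) apart from libraries 2 and 3 (6.12 and 5.85%), and haemoglobin has the widest gap, from 0.000935 to 0.0519%.

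Genes that bring fuel to the respiratory chain held 9.07, 8.97 and 9.16% of counts, with 164 of 186 at 1 CPM or more in every library. Fatty acid and ketone use was the larger list, at 2.82, 2.73 and 2.97%, and citric acid cycle genes (2.20, 2.21 and 2.34%) and glucose and glycogen genes (2.20, 2.17 and 2.08%) were level with each other. Lpl, the lipase that frees fatty acids from lipoproteins, was at 5166, 4816 and 6052 CPM. Fabp3, the heart fatty acid binding protein, was at 2569.8, 2960.2 and 2564 CPM and Hadha, an enzyme of beta-oxidation, at 2303, 2207 and 2504 CPM. All 3 libraries were close for these genes. Ucp3, a mitochondrial carrier, was not: it read 40.3, 47.3 and 168 CPM, with library 3 apart, and Cpt1a, the carnitine transferase of the liver type, read 14.6, 28.6 and 35.6 CPM.

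Some citric acid cycle enzymes were steady between libraries. Ogdh, of the oxoglutarate dehydrogenase complex, was at 3468, 3509.8 and 3459 CPM (SD 27.2), and Idh2 (isocitrate dehydrogenase) at 2248, 2096 and 2005 CPM. Control of pyruvate entry was less even. Of 28 members of the list at 20 CPM or more, 2 had a 2-fold range, Pdk4 and Pdp2. Over all genes at that level 6.17% had one. Pdk4, the kinase that switches off pyruvate dehydrogenase, was at 837, 374 and 1332 CPM, a 3.57-fold range with library 3 high and library 2 low. Pdp2, a phosphatase that reverses it, was at 22.2, 53.2 and 56.0 CPM. Pdk4 and Ucp3 were both highest in library 3.

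Glycolysis was led by Aldoa (aldolase) at 4965, 4682 and 4271 CPM, Eno3 (muscle enolase) at 2152, 2291 and 2286 CPM and Pygm (muscle glycogen phosphorylase) at 1924, 2062 and 1921 CPM. The insulin-sensitive glucose transporter gene Slc2a4 was at 1396, 1578 and 1299 CPM. Gapdh, a glycolytic enzyme used in many assays as a reference gene, was at only 119.7, 54.6 and 42.3 CPM. It has many near-identical pseudogene copies, and how reads matching several places were counted is not given in the sources used here, so its value is uncertain, as are those of the ribosomal protein, Eef1a1, haemoglobin and other genes with such copies.

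ATP is carried from mitochondria to the myofibrils by the nucleotide carrier and the creatine kinases. The carrier gene Slc25a4 was at 5667, 5688 and 5732 CPM, the smallest relative spread of any gene with a mean of 100 CPM or more (coefficient of variation, or CV, the SD over the mean: 0.588%). Ckm (muscle creatine kinase) was at 5354, 5516 and 4368 CPM and Ckmt2 (its mitochondrial form in muscle) at 1526, 1487 and 1705 CPM. The list as a whole held 1.85, 1.86 and 1.77%. Oxygen storage was almost entirely Mb, which held 2.88% of all counts, and Cygb (cytoglobin) added 15.6, 22.6 and 23.8 CPM.

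Excitation and calcium handling took 2.55, 2.76 and 2.80% of counts over 81 genes. Hrc, a calcium-binding protein inside the reticulum, was at 3598, 4021 and 3729 CPM, and the release channel gene Ryr2 at 2372, 3054 and 3645 CPM, lowest in library 1. S100a1, a calcium sensor that acts on the release channel and the pump, was at 2012, 2092 and 1884 CPM and had the highest per-length level of the list, 5480.1 ± 149. Pln, the phospholamban gene that restrains the calcium pump, was at 628, 732 and 1205 CPM. Casq1, the calsequestrin of skeletal muscle, read 72.4, 231 and 184 CPM. It was the only member of 27 at 20 CPM or more with a 2-fold range (6.17% over all genes at this level). The pump gene itself, Atp2a2, was listed at 0 and is taken up with the overlapping genes below.

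Ion channel and transporter genes held 1.03, 1.04 and 1.03%, the steadiest list by its sum. Kcnk3, a background potassium channel, was at 1329.9, 925 and 913 CPM. Kcnj2, the inward rectifier that sets the resting potential, was at 38.9, 93.3 and 131 CPM and Abcc9 at 163, 267 and 356 CPM. Both were lowest in library 1, as were 40.5% of all genes with a mean of 20 CPM or more, and both had a 2-fold range. Of 28 members at that level 2 had such a range, near the 6.17% over all genes.

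Protein synthesis genes held 1.98, 2.02 and 1.89% of counts over 238 genes. The ribosomal protein part is uncertain because of near-identical copies, as said above for Gapdh. Cytosolic ribosomal protein genes held 0.460, 0.502 and 0.460%, with 66 of 92 at 1 CPM or more in every library, and were led by Rpl8 (427, 428 and 395 CPM), Rpl4 (397, 401 and 427 CPM) and Rplp1 (354, 476 and 393 CPM). Translation factors held more, 1.07, 1.07 and 1.02%, mainly through Eef1a2, the elongation factor of muscle and neurons (2706, 2693 and 2306 CPM), Eef2 (2128, 2192 and 1941 CPM) and Eif4g1 (900.0, 898 and 927 CPM). Mitochondrial ribosome genes held 0.451, 0.456 and 0.415%, led by Mrpl28 (288, 250.4 and 190.4 CPM). Of 61 members at 20 CPM or more, 0 had a 2-fold range (6.17% over all genes at this level).

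Chaperone genes held 2.62, 2.20 and 1.99% of counts. The small heat shock protein genes led, with Cryab (alpha-B crystallin) at 7191, 6345 and 4676 CPM and Hspb7 at 6477, 4987 and 4545 CPM, followed by Hsp90ab1 at 2512, 2017 and 1861 CPM. All 3 were highest in library 1 and lowest in library 3. Of 54 members with a mean of 20 CPM or more, 6 had a 2-fold range: Bag3 (1298, 745 and 642 CPM), Hspb1 (704, 420.1 and 331 CPM), Dnajb2 (219, 102 and 108 CPM), Hsph1 (122, 58.7 and 62.7 CPM), Hsp90aa1 (97.2, 31.9 and 32.4 CPM) and Dnajb1 (63.6, 26.8 and 27.4 CPM). Library 1 was the highest for each of the 6. The background for such a range was 6.17%.

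Ubiquitin and proteasome genes held 0.895, 0.757 and 0.770%. The list was led by Trim63, the muscle ubiquitin ligase MuRF1 (828, 446 and 461 CPM), Fbxo40, a muscle F-box protein (620.1, 491 and 562 CPM), and the deubiquitinase Usp13 (657, 453 and 525 CPM). No member of 57 at 20 CPM or more had a 2-fold range (6.17% over all genes at this level). Antioxidant genes held 0.521, 0.483 and 0.492%, led by Prdx5 (714, 597 and 547 CPM) and Sod2 (469, 439 and 517 CPM), both mitochondrial enzymes, and Prdx2 (402, 397 and 366 CPM). In that list Txnip, a thioredoxin-binding protein (247, 212 and 435 CPM), and the metallothionein gene Mt2 (73.4, 27.8 and 42.8 CPM) had a 2-fold range, and more than 60% of the exon bases of each were shared with other genes. They were 2 of 28 members at 20 CPM or more (6.17% over all genes at this level).

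Among the regulators, the muscle methyltransferase gene Smyd1 took the most counts, at 528, 651 and 698 CPM. The cardiac factors Gata4 (164, 168 and 166 CPM) and Nkx2-5 (203, 164 and 124 CPM) were also detected. Of 27 genes at 20 CPM or more, 4 had a 2-fold range (6.17% over all genes at this level). They were Zbtb16, a zinc finger factor (556, 162 and 126 CPM), Hand2 (382, 205 and 161 CPM), Foxo1 (53.4, 15.8 and 24.6 CPM) and Mef2a (44.5, 67.1 and 90.4 CPM), and Mef2a alone was lowest in library 1.

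Adrenergic and cyclic nucleotide signalling was led by Adcy6, a cardiac adenylyl cyclase (926, 520.5 and 527 CPM), Prkar1a (508, 489 and 559 CPM) and Prkaca (403, 425 and 390.4 CPM), subunits of protein kinase A. Rgs2, which shortens G protein signals, was at 36.3, 119 and 112 CPM. It was the single member of 18 at 20 CPM or more with a 2-fold range (6.17% over all genes at this level). Natriuretic peptide genes held 0.184, 0.192 and 0.163%, with Nppb (1284, 1257 and 908 CPM) taking the most counts. Corin, the protease that cuts the peptide precursors, was at 236, 233 and 316 CPM.

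Immediate early and stress response genes held 0.463, 0.385 and 0.340% of counts, led by Cyr61 (799, 684 and 526 CPM), Jun (361, 434 and 392 CPM) and Dusp1 (249, 265 and 248 CPM). With 11 of 32 members at a 2-fold range (6.17% over all genes at this level) and a median CV of 31.9%, the list was less steady than the contractile genes, whose median CV was 13.6%. The 11 did not move one way. Sik1 (308, 98.4 and 84.9 CPM), Rcan1 (291, 84.4 and 82.2 CPM), Cdkn1a (141, 37.8 and 39.1 CPM), Hmox1 (72.9, 18.3 and 17.6 CPM) and Atf3 (61.9, 15.8 and 13.9 CPM) were at least 2 times higher in library 1 than in either other library, as were 1.17% of all genes at 20 CPM or more. Egr1 was the reverse, at 87.3, 276 and 260.0 CPM. Nr4a1, Myc and Fosl2 were highest in library 1, Klf2 was highest in library 2 and Ddit4 was lowest in library 3.

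Clock genes differed in opposite directions too. Dbp, an output factor of the clock, was at 13.9, 104 and 94.2 CPM, and Nfil3, which competes for the same sites, at 96.0, 22.1 and 23.6 CPM. Tef (68.3, 128 and 141 CPM) and Nr1d2 (18.1, 29.2 and 49.3 CPM) were lowest in library 1. Per1 was even, at 113, 103 and 120.3 CPM. In all, 5 of 11 clock genes at 20 CPM or more had a 2-fold range (6.17% over all genes at this level). The times at which the hearts were taken are not given in the labels, and their part in these values was not tested.

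Matrix genes held 0.627, 0.696 and 0.700%, mainly those of the basement membrane. Lamb2 (a laminin chain) was at 1496, 1420.5 and 1228 CPM, Hspg2 (perlecan) at 1258, 1358 and 1385 CPM and Col4a2 (collagen IV) at 579.8, 742 and 749 CPM. Of 33 members at 20 CPM or more, 6 had a 2-fold range (6.17% over all genes at this level). Sparcl1, Lama4, Lamb1 and Fbn1 were lowest in library 1, Dcn (35.8, 16.5 and 16.1 CPM) was highest there, and Col6a3 was lowest in library 2. The endothelial and mural marker sums were also lowest in library 1, and their part in these values was not tested.

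The remaining lists were led by genes of general use. Cytoskeletal genes outside the sarcomere held 0.668, 0.763 and 0.825%, led by Spnb2 (736, 1063 and 1284 CPM), a spectrin, and Tuba4a, a tubulin (859, 1036 and 1122 CPM). Splicing and RNA binding genes held 0.361, 0.321 and 0.363%, led by Hnrnpa2b1, followed by Rbm24 (419, 326 and 319.9 CPM) and Rbm20, the titin splicing regulator (287, 259 and 279 CPM). Histone and high mobility group genes held 0.0424, 0.0371 and 0.0346%, and 31 of the 100 were listed at 0. Antigen presentation genes held 0.0368, 0.0324 and 0.0374%. Across all 32 lists, 1438 genes held 53.8, 56.9 and 55.3% of counts.

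The bottom of the lists held forms known from other tissues, seen in few counts. Actn3 (the actinin of fast skeletal muscle) had 0, 0 and 2 counts, Cox7b2 (a testis form of a cytochrome oxidase subunit) 0, 0 and 1, Aldoc (the brain aldolase) 0, 0 and 2, and Tuba3a 0, 2 and 0. Adrb3, the adrenergic receptor of fat, had 4, 0 and 4 counts, Nppc, the endothelial natriuretic peptide, 0, 1 and 0, and Pdk3 0, 13 and 8. Other detected members at the bottom of their lists were genes with much shared exon, such as Rpl9 (0, 0 and 1 counts), Srsf7 (0, 0 and 1), Hspbap1 (0, 0 and 2) and Eif1ad (0, 4 and 1), each with at least 89.7% of its exon bases in another gene. For these, as set out below, the count does not give a level.

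Where several genes encode forms of the same protein, a single form usually dominated. Of 34 such sets, compared by per-length level, 4 hold a gene with 90% or more of its exon bases in other genes. Of the remaining 30, 19 had a leading gene with over 90% of the set in every library, and in 29 the leading gene was the same in all 3 libraries. In the myosin heavy chain set Myh6 held 93.6, 96.3 and 96.2%, Myh7 4.70, 3.21 and 3.09% and Myh7b 1.71, 0.515 and 0.702%. Troponin I, T and C, the regulatory and essential light chains, alpha-actinin and the ryanodine receptor each had a leader (Tnni3, Tnnt2, Tnnc1, Myl2, Myl3, Actn2 and Ryr2) with more than 99% in each library. Actin was less exclusive, with Actc1 at 87.2, 86.4 and 88.2% and the skeletal gene Acta1 at the rest.

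Energy genes followed the muscle forms. Cox6a2 held 98.3% ± 0.138 of its set, Cox8b 94.4% ± 0.217 and Cox7a1 80.8% ± 3.42, the rest being the general forms Cox6a1, Cox8a and Cox7a2. Slc2a4 held 96.7% ± 0.665 of the glucose transporters compared, Hk2 78.0% ± 1.16 of the hexokinases, Pfkm 87.3% ± 1.11 of the phosphofructokinases and Ldhb, the heart form, 77.4% ± 1.45 of the lactate dehydrogenases. Eno3, Pgam2, Aldoa and Ckmt2 each held more than 99%. Fabp3 held 90.6% ± 3.08 beside Fabp4, which is an endothelial marker as well, and Slc25a4 held 96.7% ± 0.377. Pygm held 64.3% ± 2.99, with the brain form Pygb at 35.1% ± 2.95.

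In translation the muscle forms dominated as completely, with Eef1a2 at 98.1% ± 0.711 over Eef1a1 and Rpl3l at 99.7% ± 0.108 over Rpl3, subject to the uncertainty of copied genes. Calsequestrin shifted between libraries, as Casq2 held 86.6, 69.8 and 75.8% and Casq1 the remainder. The pyruvate dehydrogenase kinases changed leader: Pdk2 held 58.8, 70.1 and 39.8% and Pdk4 37.3, 23.6 and 54.8%, so that Pdk4 led in library 3. The 4 sets with Atp2a2, Ppargc1a, Cpt1b or Ckb cannot be read because nearly all exon bases of these genes lie in other genes as well. In the receptor set of Esrra (66.8% ± 4.85), Esrrb and Esrrg, 62% of the exon bases of Esrra are shared.

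**Figure D3:**
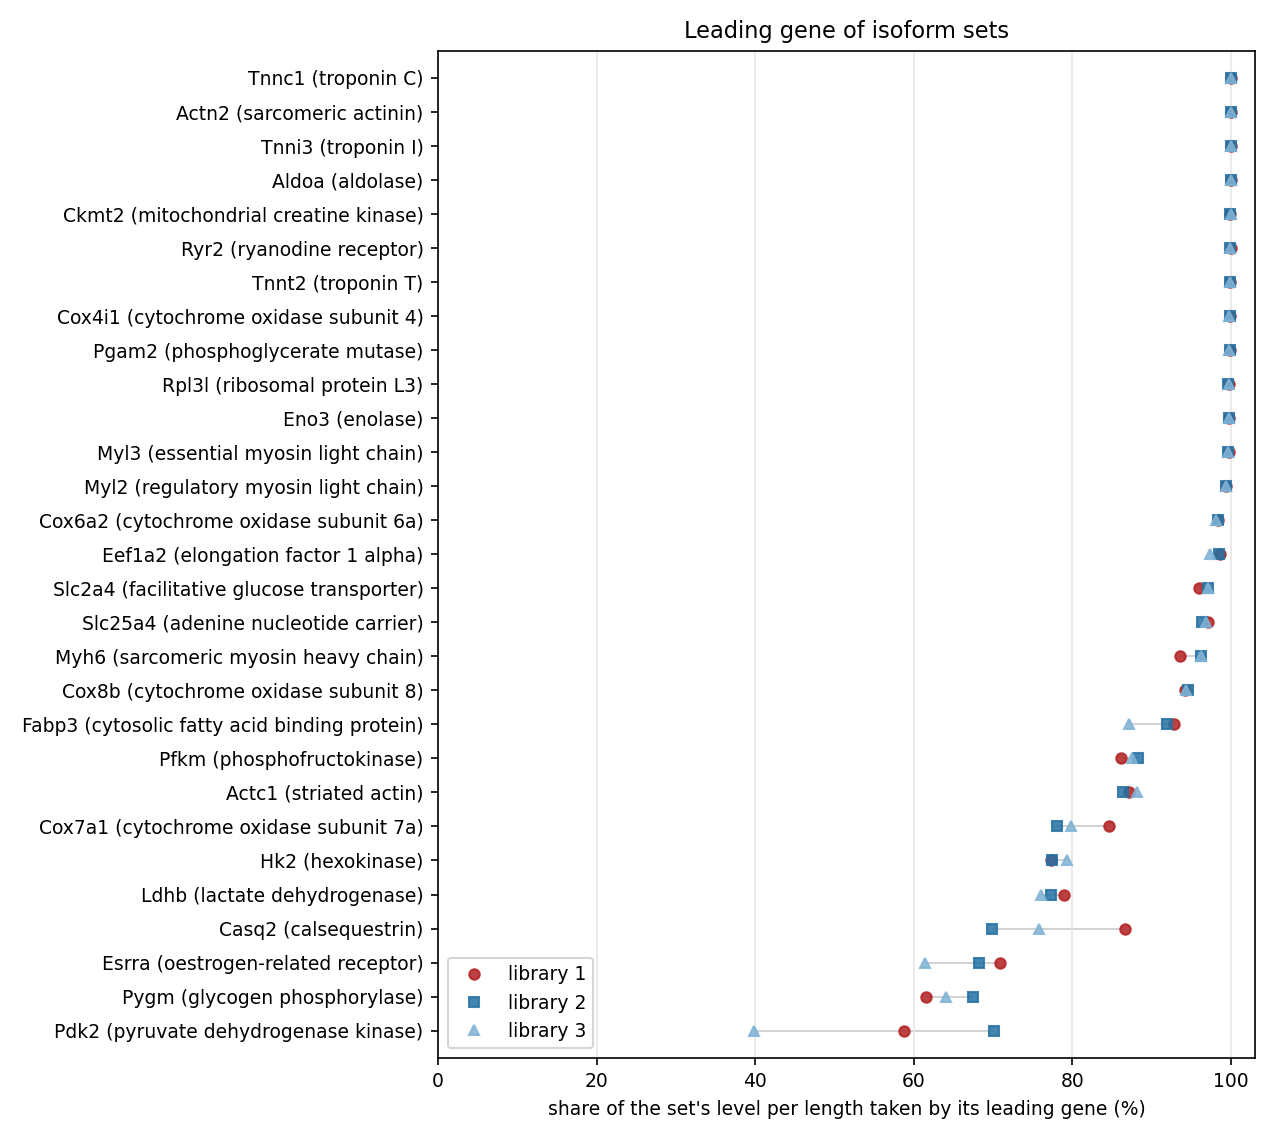
Share (percent of the summed per-length level) of the leading gene in each of 29 isoform sets, with 1 point per library. Most points lie above 90%, and the pyruvate dehydrogenase kinase set shows the widest gap, with Pdk2 from 39.8 to 70.1%; 5 sets, among them those that hold Atp2a2, Ppargc1a, Cpt1b or Ckb, were not plotted.

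Noncoding transcripts were led by one gene. The catalogue lncRNA n265358 lies on chr11:108872993-108873432 (build mm9, minus strand, 440 bases of exon), 60896 bases from the nearest coding gene, Axin2. It was at 7866, 4943 and 6233 CPM and held 0.635% ± 0.147 of the counts, while Axin2 had a mean of 9.28 CPM. The 10 highest lncRNA genes together held 1.25% ± 0.248. In this group n264818 was at 1304, 1194 and 1904 CPM and overlaps the span of Parp9 on the opposite strand, n265082 was at 1092, 929 and 895 CPM within Zc3h7a on the opposite strand, and n177784 was at 1559.9, 936 and 1403 CPM with 60.9% of its bases shared.

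Several of the 10 lie at abundant coding genes. n297435 (852, 444 and 449 CPM) lies 1581 bases from Tns1 and n268795 (354, 243 and 240.1 CPM) overlaps its end, both on its strand, and Tns1, an adhesion protein gene, had a mean of 1206 CPM. n297276 (544, 392 and 348 CPM) overlaps the end of Ankrd23, on its strand, with 69.3% of its exon bases shared. n415312 (343, 201 and 228 CPM) overlaps the span of Myh7 on the opposite strand. The libraries do not keep the strand, so reads of such pairs cannot be told apart where they overlap. The others were n265835 (837, 392 and 483 CPM) and n413706 (199, 318 and 262 CPM). Of the 10, 8 were highest in library 1, as were 42.8% of all genes with a mean of 20 CPM or more. Counting only lncRNA genes with no exon base in another gene, the class held 2.18, 1.51 and 1.81%.

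Some well-known heart genes were listed at 0 where the merged annotation gives their bases to other genes as well. Atp2a2, the calcium pump SERCA2a that reloads the reticulum after each beat, lies on chr5:122903531-122952183 (mm9, minus strand) and had 0 counts in all 3 libraries. All 5665 of its exon bases lie also in the catalogue gene n414332 on the same strand, which itself had only 9.90, 23.5 and 13.9 CPM. How reads from bases of 2 genes were counted is not given in the sources used here, and no level of the pump can be read from this table. Ckb, Pnpla2 (the adipose triglyceride lipase), Pfkfb2, Psmd2, Sln and Zfp36 were likewise listed at 0 with 99.9 to 100% of exon bases shared, and Ppargc1a, a regulator of mitochondrial genes, had 15, 9 and 3 counts with 97.8% shared. Cpt1b, the muscle enzyme that admits fatty acids to mitochondria, was at 36.1, 28.6 and 35.4 CPM with 94.8% shared.

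The same was seen across the table. All 370 nuclear coding genes with every exon base in another gene were listed at 0 in all libraries, and 317 of them had a catalogue lncRNA as the main partner. With more than 95% but not all shared, 81.4% of 226 genes were at 0, with 80 to 95% shared 30.7% of 283, with 50 to 80% shared 13.2% of 1120, and with more than 0 and up to 20% shared 8.23% of 4265. Genes with no shared base were at 0 in 35.7% of 10999 cases. Among members of the function lists, 26 had 95% or more shared, of which 22 were at 0 and 0 reached 1 CPM in every library. The function shares do not hold what these genes may contribute.

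**Figure D4:**
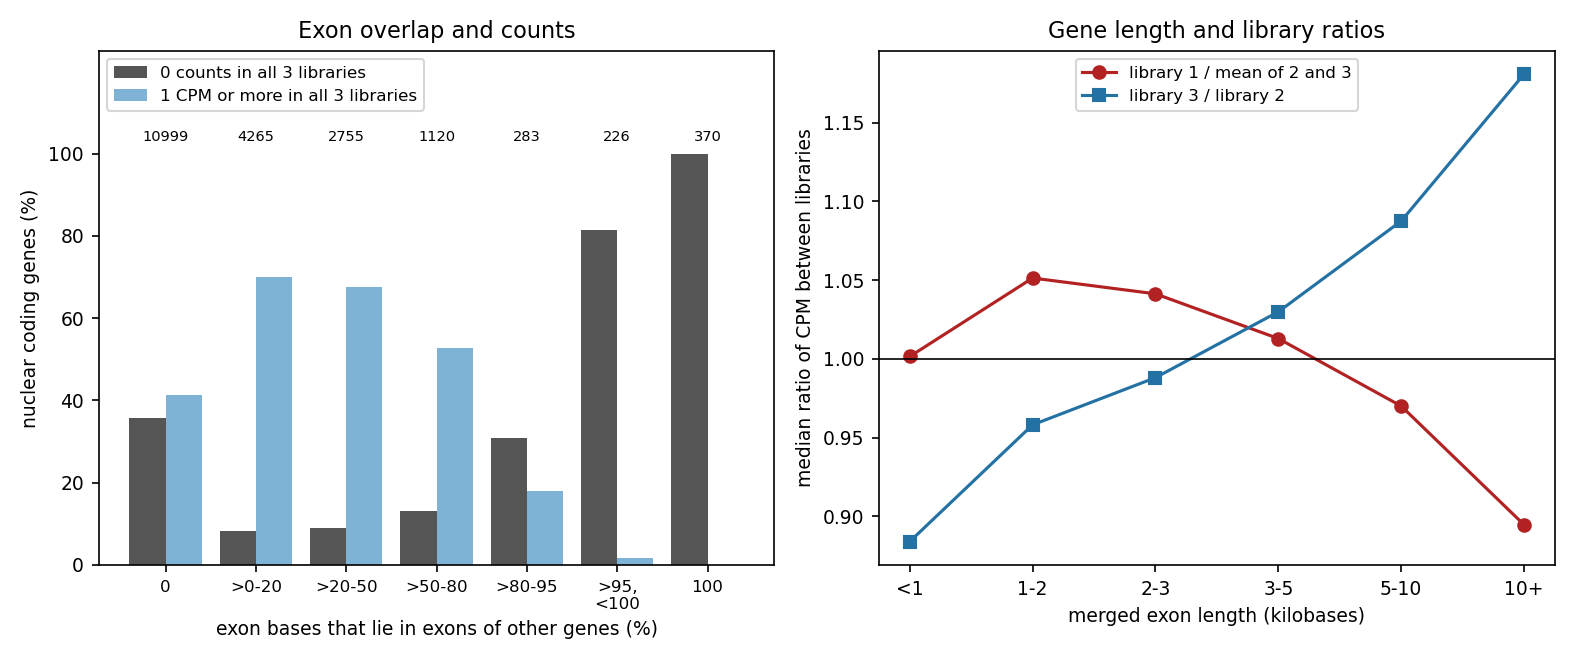
Left, percent of nuclear coding genes listed at 0 in all libraries, or at 1 CPM or more in each, by the share of exon bases that lie in another gene, with the number of genes above; the share at 0 reaches 100% for the 370 genes that are fully covered. Right, median ratio between libraries by exon length for genes with a mean of 20 CPM or more, where library 3 over library 2 climbs from 0.884 to 1.18.

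The spread between the 3 libraries was modest for most genes and larger for library 1. Over the 5140 genes with a mean of 20 CPM or more the median CV was 14.1%, against 3.95% from counting alone, and it was 12.3% for 1367 genes at 100 CPM or more and 12.1% for 138 at 1000 CPM or more. Libraries 2 and 3 were the closest pair, with a Pearson correlation of log2 CPM across genes of 0.987, against 0.953 for libraries 1 and 2 and 0.943 for 1 and 3 (genes are not independent replicates). A 2-fold difference separated libraries 2 and 3 in 16 genes, libraries 1 and 2 in 187 and libraries 1 and 3 in 259. Without library 1 the median CV was 7.55%.

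Genes apart in library 1, the library with Y chromosome counts, went both ways. Library 1 was at least 2 times each of the other libraries for 60 genes (1.17%) and at least 2 times below each of them for 70 (1.36%). For library 2 these counts were 1 (0.0195%) and 7 (0.136%), and for library 3 they were 3 (0.0584%) and 4 (0.0778%). Among genes in no list, chosen after their values were seen, those high in library 1 included Tnfrsf12a, a cytokine receptor (476, 194 and 158 CPM), the iron store gene Ftl1 (459.8, 189 and 163 CPM), Irs2 (131, 36.8 and 39.8 CPM), the insulin gene Ins2 (119, 13.4 and 11.3 CPM) and Fkbp5 (58.1, 13.7 and 24.6 CPM). Those low in library 1 included the transferrin receptor gene Tfrc (10.9, 48.9 and 114 CPM) and genes known from blood vessels, Cxcl12 (75.5, 214 and 229 CPM), Podxl (55.7, 147 and 154 CPM), Ptprb (31.7, 75.0 and 97.6 CPM), Nrp1 (25.2, 62.6 and 79.3 CPM) and Dll4 (12.1, 24.5 and 33.6 CPM). The endothelial marker sum was lowest in library 1 as well (968 against 1297 and 1550.1 CPM), and its part in these values was not tested.

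Of the 12 genes with the highest CV among those at 100 CPM or more, 11 were highest in library 1. At the same ratio, a gene high in 1 of 3 libraries has a larger CV than a gene low in 1. This ranking therefore favours genes high in a single library, and no direction is read from it. The haemoglobin gene Hba-a1 led at 290.1, 33.6 and 5.31 CPM (CV 143%), and its partner Hbb-b2, outside the 12 with a mean of 80.5 CPM, was at 212, 26.4 and 3.66 CPM. Zbtb16 (CV 84.8%), the magnesium transporter gene Slc41a3 (234, 65.5 and 57.8 CPM), Cnksr3 (205, 59.0 and 57.9 CPM), Rcan1, Sik1, the lncRNAs n285017 (192, 44.5 and 83.1 CPM) and n424047 (267, 105 and 92.9 CPM, 99.4% shared), Tnfrsf12a, Ftl1, Xirp1 and Pdk4 completed the 12. Of these only Pdk4 was highest in library 3. At the other end were Slc25a4, Clybl (104, 103 and 103 CPM), Capzb, an actin capping subunit (206, 203 and 203 CPM), Ogdh, the proteasome subunit gene Psmb6 (173, 172 and 171 CPM), Bicd2, Ppp2r1a and Grpel1, each with a CV under 1%.

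**Figure D5:**
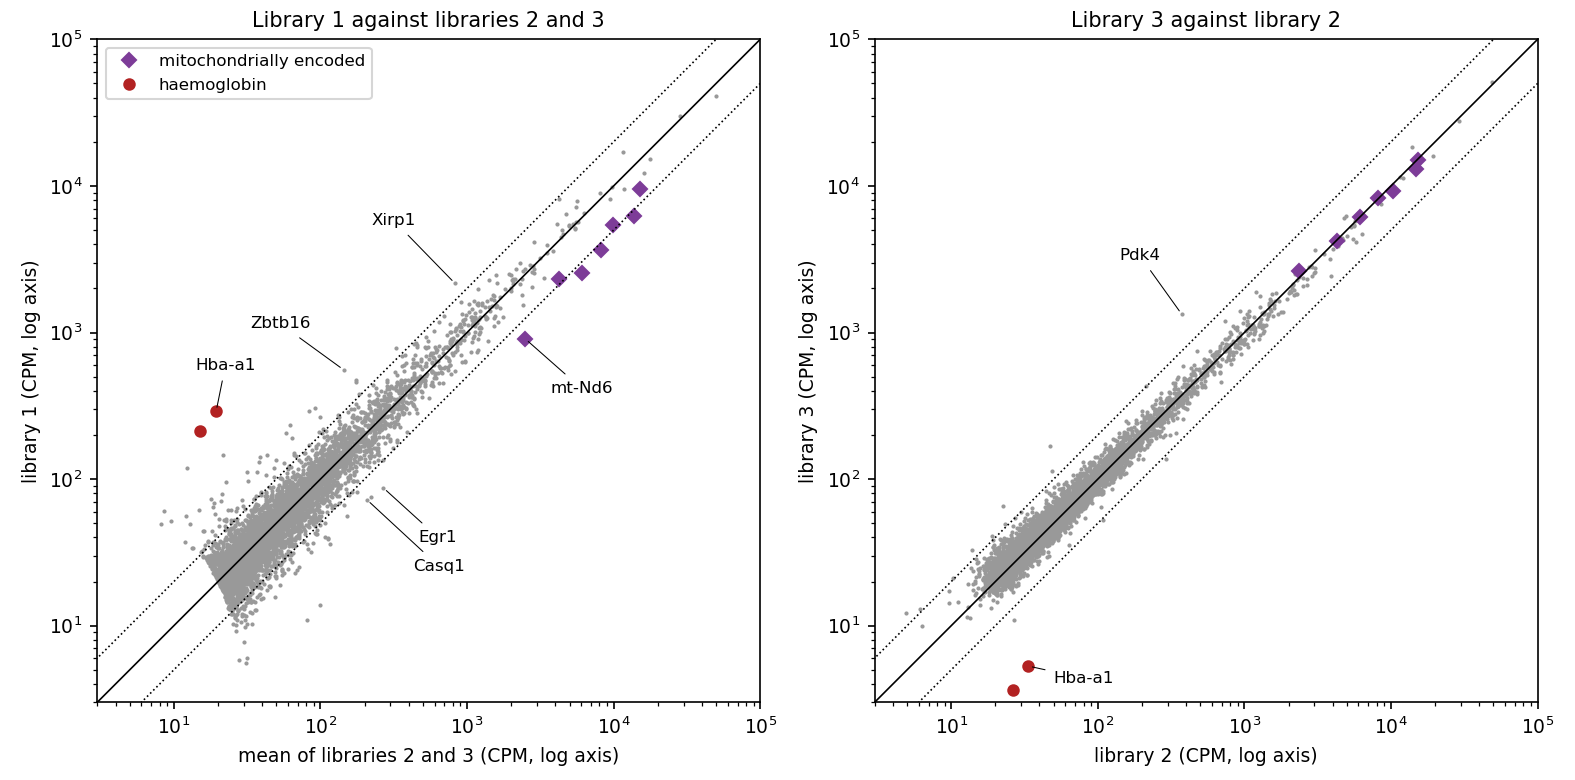
Levels of genes with a mean of 20 CPM or more on log axes, library 1 against the mean of libraries 2 and 3 (left) and library 3 against library 2 (right), with dotted lines at 2-fold. The left cloud is wider, with 60 genes at least 2-fold above and 70 at least 2-fold below both other libraries, whereas 16 genes lie outside the lines on the right.

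Exon length moved with the library. For genes with less than 1 kb of merged exon the median ratio of library 3 to library 2 was 0.884, for 1 to 2 kb 0.958, for 2 to 3 kb 0.988, for 3 to 5 kb 1.03, for 5 to 10 kb 1.09 and for 10 kb or more 1.18. The ratio of library 1 to the mean of the other 2 went from 1.00 in the shortest class through 1.05 and 1.04 to 0.895 in the longest. Titin, the longest, was at 12214, 13867 and 18431 CPM, and the short Cox6a2 and Cox8b were lowest in library 3. The part of transcript length in the values of single genes was not tested.

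The dispersion fitted by edgeR with an intercept alone was a biological CV of 0.269 over 13414 genes, and 0.152 without library 1. It was 0.390 in trend for genes between 1 and 10 CPM and 0.184 at 1000 CPM and over.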

How the data were processed

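PolyA-selected RNA of 3 cardiomyocyte libraries was analysed, and the sources tie no library number to a heart. The authors deposited whole-number read counts per gene. Per the submitters' processing notes the tools were TopHat 1.3.0, Bowtie, HTSeq, DESeq and edgeR with the mm9 genome and NCBIM37. How reads with several matches, or on bases shared by several genes, were treated was not stated in the labels. There were 0 columns of per-sample values without a sample. Counts were divided by library totals (5956831, 26851830 and 26195634) to give CPM, and by merged exon length from the deposited annotation to give the per-length level. The members, the 32 function lists and the 34 isoform sets were chosen with earlier results of these data known. No test was made, since 1 group was described; the spread was the SD, the coefficient of variation and the dispersion of edgeR 4.0.16 (intercept alone, genes passing filterByExpr with a minimum count of 10; tested on simulated data), with DESeq2 1.42.0 as an alternative, in R 4.3.3. Tables and figures used Python 3.11.15, pandas 2.3.3, numpy 2.4.6 and matplotlib 3.10.9. The genes named are the 20 highest by CPM and per length, the 10 highest lncRNA genes, the 3 highest and the lowest detected member of each list, isoform sets, 2-fold members of lists, the 12 highest and 8 lowest CVs at 100 CPM or more, and 2 markers per cell type; further list members were chosen after their values were seen, and some genes that this rule names are not reported here. Promoter sequences are from RefSeq (GRCm38.p6), and gene coordinates are in mm9, with no conversion between them. Intervals of counting error do not cover variation in library preparation.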

Additional observations from a re-analysis of the deposited data

How the results depend on the processing

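Of the alternatives to the 18 main values, 63 stayed within the spread between libraries (or within 1.5 times for counts of genes) and 35 did not. Where the SD was the limit, the mean without 1 library cannot lie beyond it. Such alternatives stayed by construction, so this tally does not measure robustness. Without mitochondrially encoded genes in the total, the nuclear coding share was 96.8% (91.9% with them) and the contractile share 21.1% (20.1%). Fuel use was 9.55% (9.07%), calcium handling and ion channels 2.85% (2.71%) and protein synthesis 2.07% (1.96%). On that total 50% of counts took 201 genes (173) and the 100 highest genes held 40.6% (42.8%). The respiratory share was then that of the nuclear members alone, 7.23%. These members held 6.87% of the full total, and all respiratory genes 11.9%. By per-length level the nuclear coding share was 83.7%, the mitochondrial 8.81% (5.01%), the lncRNA 7.33% (2.99%), the contractile 15.0%, the respiratory 24.0%, fuel use 7.80%, calcium handling and ion channels 1.94% and protein synthesis 2.45%; 56.7 and 2256 genes (3448 by counts) made 50% and 90% of the total, and the 10 and 100 highest held 24.97% (17.6%) and 57.9%. With only members under 20% shared exon the contractile share was 18.0%, fuel use 8.25%, calcium handling and ion channels 2.36% and protein synthesis 1.82%, and with only unshared lncRNA genes that class held 1.83%. Counting coding genes only, 13376 had a count in a library (23615 for all).

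Leaving out each library in turn gave a nuclear coding share of 91.2 to 92.3%, a mitochondrial share of 4.46 to 5.99% and a median CV of 7.55 to 14.8% (14.1%). Genes with a 2-fold range numbered 11 to 260 (317), with 11 when library 1 was left out and 176 when library 3 was, over the genes at 20 CPM or more in the remaining pair. The biological CV was 0.152 to 0.324 (0.269). With no filter on low counts the median CV was 74.8%, 19385 genes had a 2-fold range and the biological CV was 0.423; at 100 CPM or more 48 genes had such a range, and the median DESeq2 dispersion gave 0.179. Of the values for single lists and isoform sets, 273 alternatives stayed and 88 did not. These too include means without 1 library, which cannot lie beyond the SD. No paired analysis was possible because 1 group was described and no test was made. Library 1 had the fewest counts, and with 3 libraries an SD is itself imprecise.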

Other observations

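Abundant genes in none of the function lists were chosen after their values were seen. Pde4dip, the anchoring protein myomegalin, was at 4474, 4426 and 4361 CPM (SD 57.0) and took the most counts of any coding gene outside the lists. Lysosomal genes followed, with Ctsd (cathepsin D) at 3941, 3864 and 3195 CPM and Psap (prosaposin) at 2882, 2907 and 2443 CPM, and Ctsb (cathepsin B) was at 802, 916 and 781 CPM. At the cell surface, Bsg (basigin, which escorts lactate transporters) was at 2708, 3015 and 2743 CPM and the heparan sulphate proteoglycan gene Gpc1 at 2455, 2189 and 1798 CPM. The iron store gene Fth1 was at 2313, 2273 and 1829 CPM, while its partner Ftl1 was at 459.8, 189 and 163 CPM. Library 1 was highest for both, by a different ratio.

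Linkers of the cytoskeleton and of the mitochondrion were also prominent there. Plec (plectin) was at 2465, 1584 and 1550.5 CPM and Tacc2 at 1989, 1036 and 1333 CPM, both highest in library 1, and Dst (dystonin) was at 1470.1, 1541 and 1836 CPM. The mitochondrial genes Chchd10 (1591, 1413 and 1131 CPM), Mfn2, which fuses mitochondria (1230.0, 1353 and 1333 CPM), and Pink1, a kinase of mitochondrial quality control (1107, 914 and 845 CPM), were in the same range. Dmpk, the kinase gene known from myotonic dystrophy, was at 1569, 1018 and 1036 CPM, Ndrg2 at 1523, 1503 and 1443 CPM and Crip2 at 1652, 1442 and 1293 CPM. Ptgds, a prostaglandin D synthase, was at 1617, 987 and 837 CPM, and library 1 was again the highest.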
